A study of Mus musculus with 41 samples.

Results

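Interferon-stimulated genes are the genes that a cell transcribes when interferon reaches it or when its own sensors of foreign nucleic acid are triggered. The module described here holds 39 such genes, chosen as a list of mouse gene symbols with earlier results of these data known. All 39 symbols were found among the 24537 of the deposited gene table. All 39 also passed the filter on low counts in the 17 microglial RNA libraries, in which 13840 genes were tested. Of the 39, 37 passed it in the separate comparison with brain lysate, where 15335 genes were tested.

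The study sequenced poly(A) RNA from microglia of C57Bl6 mice, the resident macrophages of the brain, sorted as live CD11b+ CD45Low cells. There were 5 libraries of cells lysed straight after sorting (ex vivo), and 2, 3 and 5 libraries of sorted cells kept in culture for 6 h, 24 h and 7 d. A further 2 libraries came from cells kept 7 d with the cytokine TGFβ as well, and 4 from unsorted brain lysate. All cultures received the cytokine IL-34 daily in DMEM/F12 medium with 5% serum, without a change of medium, so that every cultured group shares IL-34 and serum and no culture lacks them. The labels of 24 h replicate 2 give 22 h. No label gives the age of the mice or ties a replicate to its own animal or culture, so p-values measure the spread between these libraries, which may be technical. Peaks of open chromatin (ATAC), of the histone marks H3K27ac and H3K4me2 and of the factor PU.1 were deposited as 1 pooled list per condition. Each of these conditions had 2 samples, and the labels of ATAC 7 d replicate 2 give 8 d.

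Type I interferons bind a receptor of the chains IFNAR1 and IFNAR2, whose kinases phosphorylate factors that include STAT2. STAT2 and IRF9 are parts of the complex ISGF3, which binds the interferon-stimulated response element, a DNA sequence with repeated GAAA. Double-stranded RNA in the cytoplasm is sensed by RIG-I and MDA5, and such sensors can induce both interferon and part of the module directly through IRF3 and IRF7. Microglia carry the receptor and respond to interferon, and the module is known to be raised in the brain in infection and in inherited interferonopathies.

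Depth was 11584561 to 28841472 gene counts per library. Levels are given as CPM, the counts scaled by TMM-adjusted library size, and fold changes come from edgeR's quasi-likelihood test with Benjamini-Hochberg adjustment over all genes tested. A gene is called higher or lower where its adjusted p is under 0.05. Of the microglial markers, Cx3cr1 was at 7720 to 10080 CPM ex vivo, 511.3 to 925.4 CPM at 6 h and 24 h, 607.8 to 1219 CPM at 7 d and 2486 and 2963 CPM with TGFβ. P2ry12 was at 2974 to 6573 CPM ex vivo and only 1.83 to 11.3 CPM at 6 h and 24 h, 30.4 to 46.4 CPM at 7 d and 125.7 and 262.5 CPM with TGFβ. In the cultures the 6 neutrophil markers summed at most to 9.45 CPM and the 5 monocyte markers to 7.56 CPM, against up to 173.3 and 46.9 CPM ex vivo. The border macrophage markers Mrc1, Cd163, Lyve1, Pf4, Cbr2 and Ms4a7 summed to 192.9 to 228.1 CPM at 7 d, 60.9 to 84.4 CPM with TGFβ, 3.08 to 4.91 CPM at 6 h and 24 h and 6.95 to 89.1 CPM ex vivo. At 7 d, Ms4a7 was at 87.77 to 162.1 CPM and Pf4 at 6.075 to 25.64 CPM, against at most 1.694 and 2.299 CPM ex vivo. Mrc1, at 46.48 to 83.62 CPM, overlapped its ex vivo range of 6.95 to 68.05 CPM, and Cbr2 overlapped too. Lyve1 and Cd163 were at most at 0.1371 and 1.969 CPM at 7 d, against up to 5.849 and 7.825 CPM ex vivo. The 5 endothelial markers summed to 9.14 to 15 CPM ex vivo, 13.3 to 39.9 CPM at 7 d and 30.8 to 67.1 CPM with TGFβ, with Cldn5, Ly6c1 and Slco1a4 at 0 in every library of 7 d and of TGFβ. The part of these cells in the results below was not tested. As these are bulk libraries, fewer cells of a type and less RNA per cell cannot be told apart.

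The promoters of 8 members are shown because the expression and chromatin results turn on them. They are the 300 bases from 250 before to 50 after the gene start, 5′ to 3′ on the gene's strand, from RefSeq on GRCm38.p6 (mm10), and capitals mark every match on either strand to GAAA, any 2 bases and GAAA again, called ISRE-like here as an approximation of the interferon-stimulated response element. The first 5 carry such a match and have an H3K27ac peak in the list of 7 d but not in that of ex vivo cells. Isg15 has 3 overlapping matches, Cxcl10 was highest at 6 h, and Gbp3 was the member that fell in every culture.
Ifit1, chr19:34640639-34640938: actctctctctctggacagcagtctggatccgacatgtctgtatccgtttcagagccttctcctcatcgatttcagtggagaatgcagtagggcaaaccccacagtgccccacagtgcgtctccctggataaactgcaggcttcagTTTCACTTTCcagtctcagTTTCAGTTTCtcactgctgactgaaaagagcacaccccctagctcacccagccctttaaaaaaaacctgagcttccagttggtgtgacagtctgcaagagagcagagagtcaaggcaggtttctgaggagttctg
Rsad2, chr12:26456403-26456702: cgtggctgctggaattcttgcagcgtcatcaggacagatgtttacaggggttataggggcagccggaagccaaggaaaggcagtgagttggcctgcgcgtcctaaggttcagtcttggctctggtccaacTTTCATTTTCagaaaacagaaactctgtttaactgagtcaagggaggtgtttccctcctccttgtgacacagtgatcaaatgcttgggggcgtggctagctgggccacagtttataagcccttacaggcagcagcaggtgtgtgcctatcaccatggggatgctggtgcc
Oas1a, chr5:120907476-120907775: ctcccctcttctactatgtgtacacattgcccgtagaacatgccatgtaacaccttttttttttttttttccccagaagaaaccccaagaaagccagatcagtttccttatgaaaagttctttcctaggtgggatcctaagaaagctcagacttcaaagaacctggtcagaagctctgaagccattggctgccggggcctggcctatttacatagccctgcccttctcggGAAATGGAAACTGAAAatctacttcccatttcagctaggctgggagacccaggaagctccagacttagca
Oas3, chr5:120777610-120777909: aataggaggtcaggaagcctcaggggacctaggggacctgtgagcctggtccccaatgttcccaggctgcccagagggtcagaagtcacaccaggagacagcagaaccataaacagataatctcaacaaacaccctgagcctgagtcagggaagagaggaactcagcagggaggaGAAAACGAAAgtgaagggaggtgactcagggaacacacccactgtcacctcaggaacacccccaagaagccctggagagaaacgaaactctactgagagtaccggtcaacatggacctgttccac
Ifitm3, chr7:141010695-141010994: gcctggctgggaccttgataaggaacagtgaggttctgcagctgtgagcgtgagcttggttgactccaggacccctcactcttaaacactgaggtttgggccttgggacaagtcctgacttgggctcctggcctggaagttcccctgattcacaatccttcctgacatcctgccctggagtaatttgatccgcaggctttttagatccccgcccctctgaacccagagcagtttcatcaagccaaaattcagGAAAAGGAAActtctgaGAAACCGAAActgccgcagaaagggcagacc
Isg15, chr4:156200769-156201068: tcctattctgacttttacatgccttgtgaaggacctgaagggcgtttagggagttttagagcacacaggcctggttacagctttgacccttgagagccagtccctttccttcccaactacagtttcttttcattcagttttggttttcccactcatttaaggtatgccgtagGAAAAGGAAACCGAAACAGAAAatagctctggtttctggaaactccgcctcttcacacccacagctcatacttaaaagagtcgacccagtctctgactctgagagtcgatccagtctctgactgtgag
Cxcl10, chr5:92348840-92349139: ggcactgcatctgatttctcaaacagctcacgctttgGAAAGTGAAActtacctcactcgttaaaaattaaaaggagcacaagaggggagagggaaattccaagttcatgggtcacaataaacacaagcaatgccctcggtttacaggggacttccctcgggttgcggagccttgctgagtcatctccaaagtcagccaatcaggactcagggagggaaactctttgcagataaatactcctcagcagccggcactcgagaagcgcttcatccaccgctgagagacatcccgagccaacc
Gbp3, chr3:142559794-142560093: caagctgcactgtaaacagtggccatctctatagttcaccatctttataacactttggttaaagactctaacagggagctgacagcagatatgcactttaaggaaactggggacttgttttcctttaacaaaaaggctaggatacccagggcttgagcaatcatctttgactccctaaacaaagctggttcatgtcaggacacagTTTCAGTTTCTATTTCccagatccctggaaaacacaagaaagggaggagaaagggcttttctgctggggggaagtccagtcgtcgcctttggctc

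Counted from the gene start as base 0, the matches begin at -104 and -85 in Ifit1, at -120 in Rsad2, at -20 and -14 in Oas1a and at -75 in Oas3. In Ifitm3 they begin at 2 and 19, in Isg15 at -78, -72 and -66, in Cxcl10 at -213 and in Gbp3 at -45 and -39. Promoter sequences were found for 29 of the 39 members, some with several starts, and 16 of these 29 genes held at least 1 match in at least 1 promoter. By promoter, 17 of the members' 34 (50.0%) held a match, against 3.44% of all 32851 promoters of the same length. The PU.1-like sequence GAGGAAGT was in 1 of the 34 (2.94%), that of Dtx3l, against 3.20% of all. With 1 mismatch allowed at the fixed letters of the ISRE-like sequence, 32 of the 34 promoters matched (94.1%), against 35.4% of all promoters. A match is a description of letters, not of binding.

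Against ex vivo cells, most of the module was called higher at 7 d and 22 members at 24 h, while at 6 h most members were not called. At 7 d, 30 of the 39 members were called higher than ex vivo (76.9%, against 34.8% of all genes tested) and 1, Gbp3, was called lower (35.7% of all genes). Their median log2 fold change was 2.29, beside -0.02 over all genes. At 24 h, 22 members were called higher (29.6% of all genes) and again Gbp3 alone lower (33.1% of all genes), with a median of 1.63 beside -0.06. Without 24 h replicate 1 the median was 0.40 beside -0.05, with 15 called higher (27.1% of all genes) and 4 lower (28.7% of all genes). Ifih1, Oasl2, Parp9, Rtp4, Usp18, Xaf1 and Zbp1 were then no longer called, and Lgals3bp, Mx1 and Mx2 joined Gbp3 among the lower. At 6 h, 10 members were called higher (31.2% of all genes) and 6 lower (36.8% of all genes), shares no larger than the background. Another 23 were not called, and the median was 0.01 beside -0.17 over all genes. The group with the highest median level was 7 d for 32 of the 39 members, against 16.9% of all genes, and that with the lowest was ex vivo for 17 and 6 h for 16. The highest was 6 h for Oasl1, Cxcl10 and Trim25, 24 h for Isg20 and Gbp2, ex vivo for Gbp3, and 7 d with TGFβ for Lgals3bp.

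**Figure D1:**
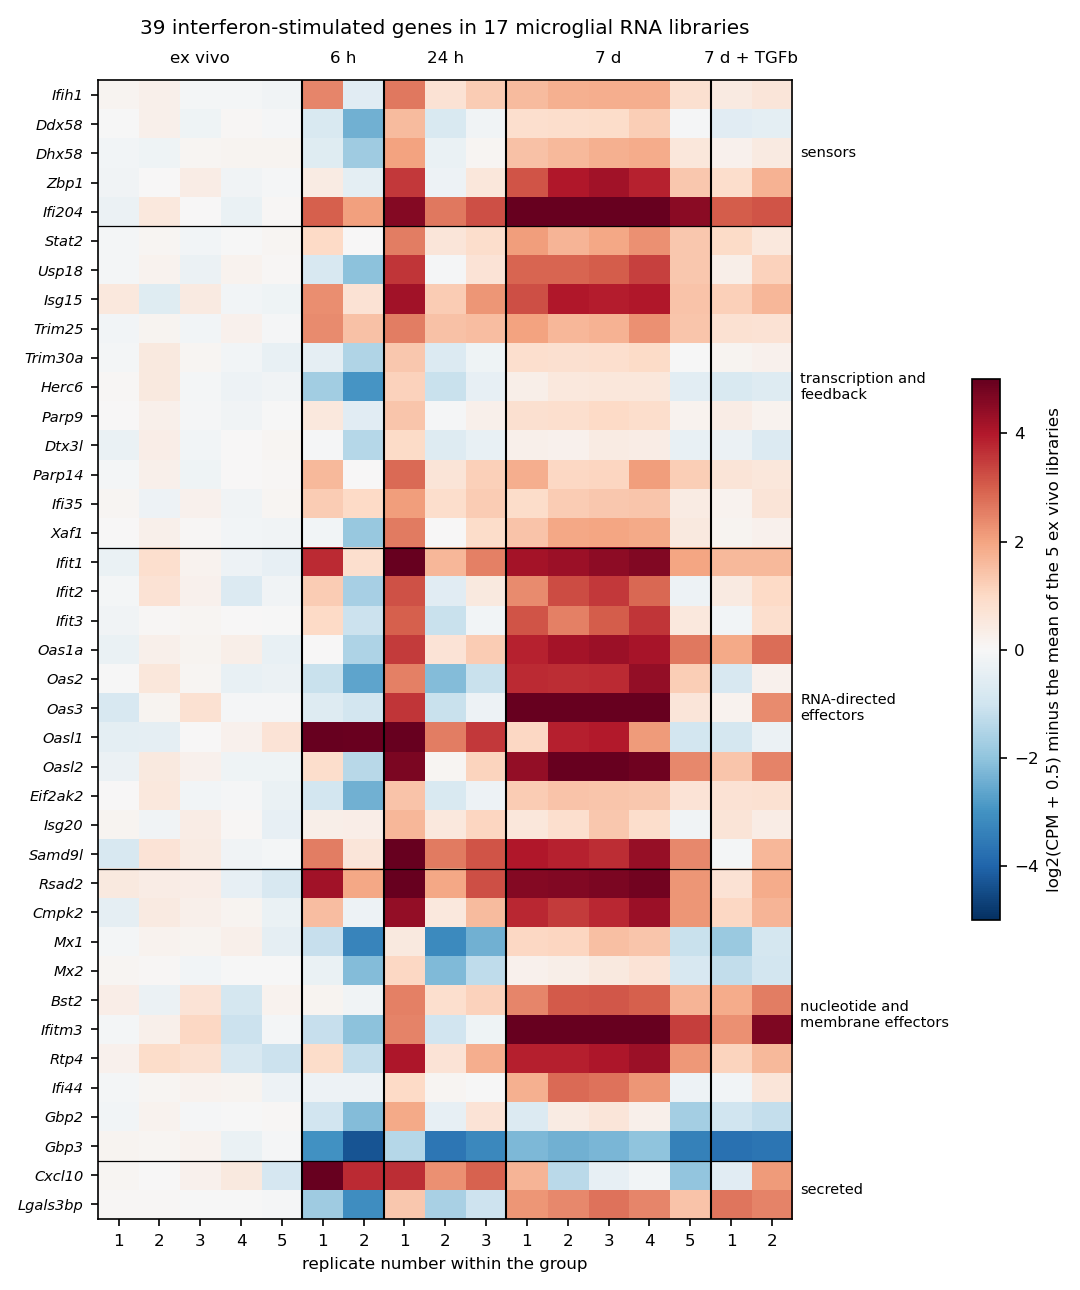
Each row is 1 of the 39 members, grouped by role, and each column 1 of the 17 microglial RNA libraries, with colour for log2(CPM + 0.5) minus the mean of the 5 ex vivo libraries and the scale saturating at 5 in either direction. Most rows are darkest in 7 d replicates 1 to 4 and in 24 h replicate 1, and Gbp3 is below ex vivo in every cultured library.

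The 6 h comparison rests on 2 libraries that differed widely in these genes. Without 6 h replicate 1 the members' median log2 fold change was -1.49, beside -0.21 over all genes. Without replicate 2 it was 0.39, beside -0.23. With limma on log2(TPM + 0.1) 6 were called higher and 15 lower. Ifih1, Ifit1, Isg15, Rsad2 and Samd9l were no longer called without replicate 1, and Ifih1 then had a log2 fold change of -0.54. The members Cxcl10, Oasl1, Ifi204, Ifi35 and Trim25 were called higher and Gbp3 and Herc6 lower with either library left out. Ifi44 had no count at 6 h, and setting it at a floor of 3 counts over the group leaves the median at 0.01.

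The sensors recognise foreign nucleic acid: Ifih1 encodes MDA5, Ddx58 encodes RIG-I, Dhx58 their regulator LGP2, Zbp1 a sensor of left-handed nucleic acid, and Ifi204 a protein of the DNA-binding p200 family. Ifi204, the most abundant of the 5 by mean CPM, was at 4.59, 8.57, 5.93, 4.51 and 6.06 CPM in ex vivo replicates 1 to 5. It stood at 49.8 and 25.9 CPM at 6 h and at 150.5, 38.2 and 58.1 CPM at 24 h. At 7 d it reached 210.2, 235.2, 275.6, 252 and 142.1 CPM. Every cultured library lay above every ex vivo library. The log2 fold change was 2.68 ± 0.40 (SE, n = 2 against 5) at 6 h, 3.79 ± 0.38 (n = 3 against 5) at 24 h and 5.23 ± 0.38 (n = 5 against 5) at 7 d, with adjusted p (edgeR) of 2.28e-05, 3.15e-07 and 6.83e-09. Reads of Ifi204 may be split with other genes of its family, which are near copies.

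Ifih1 was at 28.4 to 38.2 CPM ex vivo. At 6 h its libraries stood at 178.9 and 21.8 CPM, on either side of the ex vivo range. It was at 200.6, 53.3 and 78.3 CPM at 24 h and at 96.4, 110.8, 115, 113.7 and 56.1 CPM at 7 d, all above ex vivo. At 7 d it was 3.04-fold higher (log2 1.60 ± 0.44, edgeR adjusted p = 0.00454). Ddx58 moved the other way at first: its 6 h libraries, at 34.1 and 10.6 CPM, lay below the ex vivo range of 49.8 to 68 CPM, with a log2 fold change of -1.37 ± 0.55 (edgeR adjusted p = 0.037). That call was lost without 6 h replicate 2 and without ex vivo replicate 1, 2, 4 or 5. Zbp1 and Dhx58 were called higher at 7 d, by 3.91 ± 0.73 and 1.53 ± 0.38 on the log2 scale. In all, 4 of the 5 sensors were called higher then (80.0%, against 34.8% of all genes).

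Genes of transcription and feedback include Stat2, part of ISGF3, Usp18, which removes ISG15 and damps the receptor, Isg15 itself, a ubiquitin-like protein, and Trim25 and Herc6, which are ubiquitin or ISG15 ligases. Of these 11 members, 3 were called higher (27.3%, against 31.2% of all genes) and 1 lower (9.09%, against 36.8%) at 6 h. Both shares were below those of all genes. At 24 h and at 7 d 8 were called higher (72.7%, against 29.6% and 34.8% of all genes). Parp14, a mono-ADP-ribosyltransferase and the most abundant by mean CPM, was at 109.1 to 148.3 CPM ex vivo. It stood at 388 and 128.1 CPM at 6 h, at 887.2, 195.8 and 284.1 CPM at 24 h, and at 447.8, 255.7, 264, 532.4 and 294 CPM at 7 d. All libraries of 24 h and 7 d were above ex vivo, while 6 h replicate 2 lay inside its range. The log2 fold change was 1.85 ± 0.42 at 24 h and 1.51 ± 0.38 at 7 d (edgeR adjusted p of 0.00116 and 0.00218).

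Trim25, a ligase that activates RIG-I, rose early and in every library. It was at 58 to 74.6 CPM ex vivo, 336.1 and 180.1 CPM at 6 h, 383.3, 180.5 and 187.9 CPM at 24 h and 167.7 to 314.3 CPM at 7 d. The rise at 6 h was 4.00-fold (log2 2.00 ± 0.27, edgeR adjusted p = 6.4e-06). Isg15 was low ex vivo, at 0.688 to 2.09 CPM. It stood at 8.65 and 2.47 CPM at 6 h, at 32.3, 3.80 and 7.82 CPM at 24 h and at 16.4, 28.2, 27.3, 28.4 and 4.40 CPM at 7 d. Every cultured library was above the ex vivo range, and at 7 d the gene was 14.8-fold higher (log2 3.88 ± 0.65, edgeR adjusted p = 6.94e-05). Herc6 fell at 6 h, by 2.32 ± 0.55 on the log2 scale, to 11.5 and 4.77 CPM from 33.2 to 56.6 CPM ex vivo. At 7 d, Trim30a, Herc6 and Dtx3l were not called, with log2 fold changes of 0.70 ± 0.33, 0.31 ± 0.36 and 0.18 ± 0.30.

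The RNA-directed effectors bind, modify or degrade viral RNA or stop its translation: Ifit proteins bind RNA ends, Oas proteins make the activator of RNase L, Eif2ak2 encodes the kinase PKR and Isg20 an exonuclease. All 11 members of this group were called higher at 7 d (34.8% of all genes), with a median log2 fold change of 3.73. At 24 h 6 of the 11 were called higher (54.5%, against 29.6% of all genes). At 6 h 3 were called higher (27.3%, against 31.2%) and 1 lower (9.09%, against 36.8%), shares below those of all genes. Eif2ak2, the most abundant of them by mean CPM, fell and then rose. It was at 42 to 76.6 CPM ex vivo, 28.1 and 9.60 CPM at 6 h, 144, 30.6 and 44 CPM at 24 h and 129.8, 143.9, 140, 137 and 85 CPM at 7 d. The 6 h libraries were below and the 7 d libraries above all ex vivo libraries. Log2 fold changes were -1.52 ± 0.52 at 6 h (edgeR adjusted p = 0.0178, lost without 6 h replicate 2) and 1.24 ± 0.36 at 7 d (edgeR adjusted p = 0.00662).

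Oasl2, a protein that resembles the Oas enzymes, was at 5.20 to 9.25 CPM ex vivo and at 12.4 and 2.18 CPM at 6 h. It stood at 181.9, 6.87 and 14.7 CPM at 24 h and at 147, 254.6, 287.1, 199.2 and 36.6 CPM at 7 d. Only 1 of the 24 h libraries was far above ex vivo, while all 5 of 7 d were. At 7 d it was 27.9-fold higher (log2 4.80 ± 0.86, edgeR adjusted p = 0.000144). Its neighbour Oasl1, which lacks the enzyme activity, had another course. It was at 0.278 to 1.28 CPM ex vivo, 370.8 and 33.3 CPM at 6 h, 48.3, 6.01 and 12.4 CPM at 24 h and 1.77, 15.6, 16.8, 4.28 and 0.0854 CPM at 7 d. The 6 h and 24 h libraries lay above ex vivo, and 7 d replicate 5 lay below it. The rise at 6 h was 8.29 ± 1.27 on the log2 scale (edgeR adjusted p = 3.22e-05), and Oasl1 was the member called lower at 24 h than at 6 h (log2 -3.18 ± 1.20, edgeR adjusted p = 0.0454, lost without 24 h replicate 2, 24 h replicate 3 or 6 h replicate 1). Oas3 and Oas1a were 5.74 ± 1.17 and 4.14 ± 0.56 higher at 7 d on the log2 scale. The Ifit and Oas genes form families of near copies, so that reads may be shared between members.

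**Figure D2:**
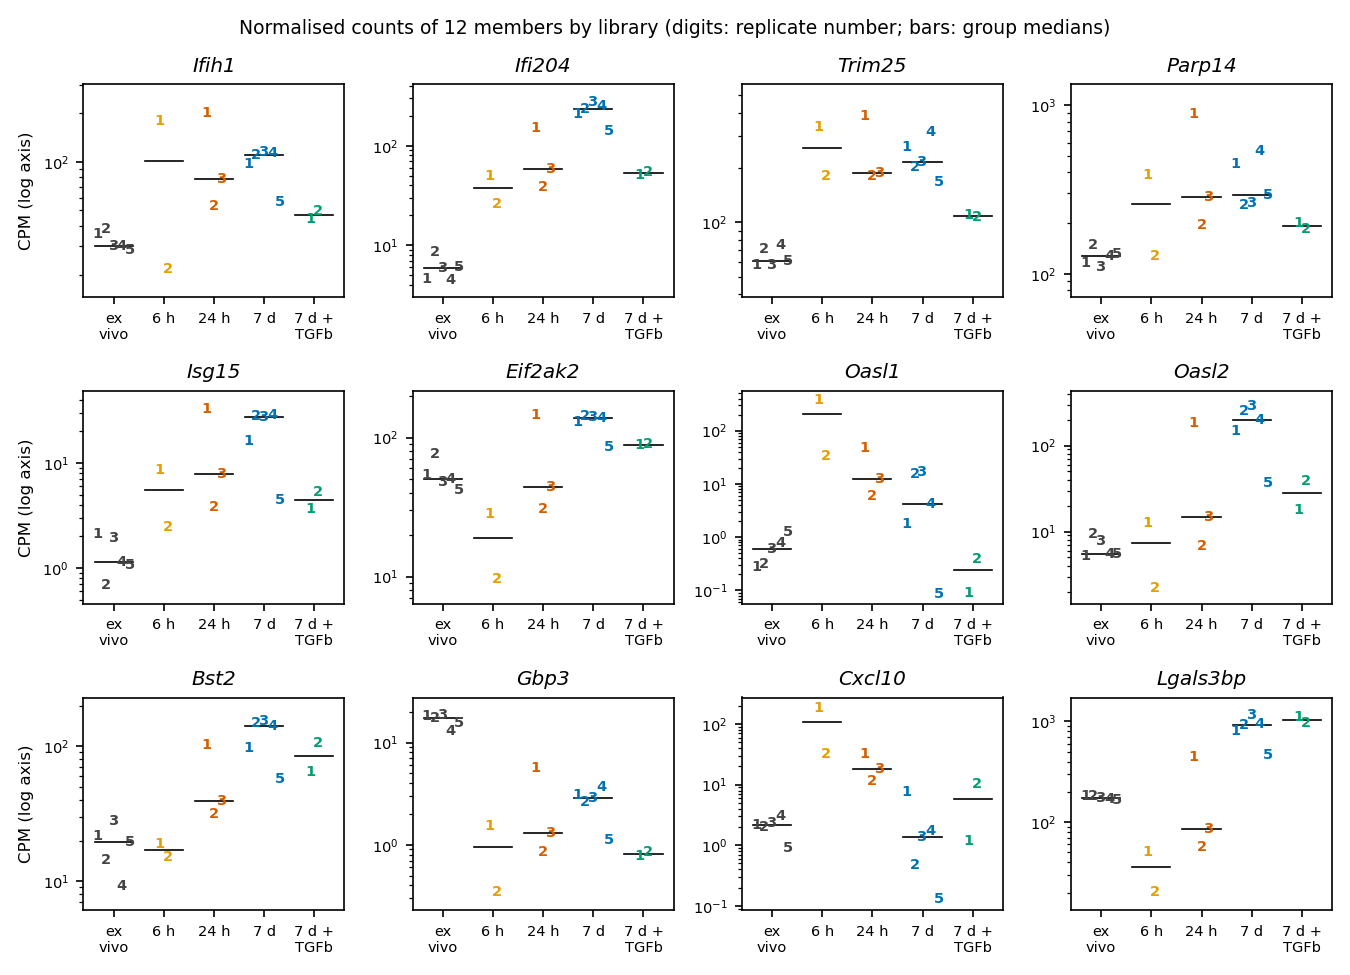
Each panel shows 1 of 12 members, with CPM on a log axis against group, each digit being a library by its replicate number and each bar the group median. Replicate 1 is the highest at 6 h and 24 h in all 12 panels, replicate 5 is the lowest at 7 d in 11 of the 12, all but Parp14, and Gbp3 is highest ex vivo.

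Nucleotide and membrane effectors act on nucleotide pools or at membranes: Rsad2 encodes viperin, which makes a chain-terminating nucleotide, Bst2 tethers budding virus, Ifitm3 hinders membrane fusion, Mx proteins and Gbp proteins are large GTPases. Of these 10, 6 were called higher (60.0%, against 34.8% of all genes) and Gbp3 lower (35.7% of all genes) at 7 d. Bst2, the most abundant by mean CPM, was at 21.8, 14.3, 28.2, 9.17 and 19.4 CPM ex vivo and at 19 and 15.1 CPM at 6 h, within that range. It stood at 102.1, 31.2 and 39 CPM at 24 h and at 96.9, 149, 153.3, 141.8 and 57.5 CPM at 7 d, all above ex vivo. The log2 fold change was 1.62 ± 0.41 at 24 h (edgeR adjusted p = 0.00262) and 2.68 ± 0.38 at 7 d (edgeR adjusted p = 1.38e-05).

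Ifitm3 was a late member. It was at 0.932 to 5.73 CPM ex vivo, 0.846 and 0.23 CPM at 6 h, 16.3, 1.07 and 2.11 CPM at 24 h, and 152, 161, 148.2, 272.9 and 32.4 CPM at 7 d. Only at 7 d did all its libraries exceed ex vivo, by 52.0-fold (log2 5.70 ± 0.82, edgeR adjusted p = 1.92e-05). It was also higher at 7 d than at 24 h (log2 4.56 ± 0.96, edgeR adjusted p = 0.00121). Rsad2 was at 0.667 to 2.32 CPM ex vivo, 36.1 and 7.18 CPM at 6 h, 104.4, 7.21 and 18.4 CPM at 24 h and 47.8, 48.9, 52.1, 56.2 and 8.79 CPM at 7 d. Each cultured library was above ex vivo, and the log2 fold changes were 3.70 ± 0.87, 4.70 ± 0.83 and 4.68 ± 0.79 at the 3 times. Mx1 and Mx2 were not called at any of these times.

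Gbp3 was the exception of the module. It was at 18.1, 17.3, 18.4, 12.8 and 15.4 CPM ex vivo, 1.54 and 0.345 CPM at 6 h, 5.68, 0.853 and 1.29 CPM at 24 h and 1.11 to 3.68 CPM at 7 d. No cultured library reached the ex vivo range. The gene fell by 4.09 ± 0.74 at 6 h, by 2.65 ± 0.55 at 24 h and by 2.61 ± 0.45 at 7 d on the log2 scale, with adjusted p (edgeR) of 0.000124, 0.000537 and 7.64e-05. Its relative Gbp2 fell at 6 h (log2 -1.62 ± 0.67, edgeR adjusted p = 0.0411, lost without 6 h replicate 2 and without each of the 5 ex vivo libraries) and had a log2 fold change of -0.02 ± 0.45 at 7 d. Gbp genes are close relatives, so that reads may be shared.

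Of the secreted members, Cxcl10 is a chemokine that draws T cells, and Lgals3bp a glycoprotein that binds galectins. Cxcl10 was at 0.89 to 3.01 CPM ex vivo, 183.1 and 32.5 CPM at 6 h, 31.8, 11.5 and 18.4 CPM at 24 h and 7.62, 0.48, 1.38, 1.74 and 0.128 CPM at 7 d. In CPM the libraries of 6 h lay above those of every other group, but 6 h replicate 2 only just above 24 h replicate 1. In the TPM deposited by the authors these groups overlapped, the lower 6 h value being 44.25 and the highest 24 h value 55.38. The 7 d libraries overlapped ex vivo. The log2 fold change was 5.70 ± 0.97 at 6 h (edgeR adjusted p = 9.37e-05), 3.31 ± 0.89 at 24 h (edgeR adjusted p = 0.0044) and 0.14 ± 0.83 at 7 d. Lgals3bp had the reverse course. It was steady ex vivo, at 166.3 to 182.1 CPM, fell to 50.9 and 20.1 CPM at 6 h, stood at 441.9, 56.2 and 85.9 CPM at 24 h and reached 802.6, 929.4, 1153, 945.9 and 465.3 CPM at 7 d. Log2 fold changes were -2.30 ± 0.66 at 6 h (edgeR adjusted p = 0.00585, lost without 6 h replicate 2) and 2.29 ± 0.45 at 7 d (edgeR adjusted p = 0.000325). At 24 h its fold change was 0.15 ± 0.50 with all 3 libraries and -1.28 without 24 h replicate 1 (edgeR adjusted p = 0.00408).

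**Figure D3:**
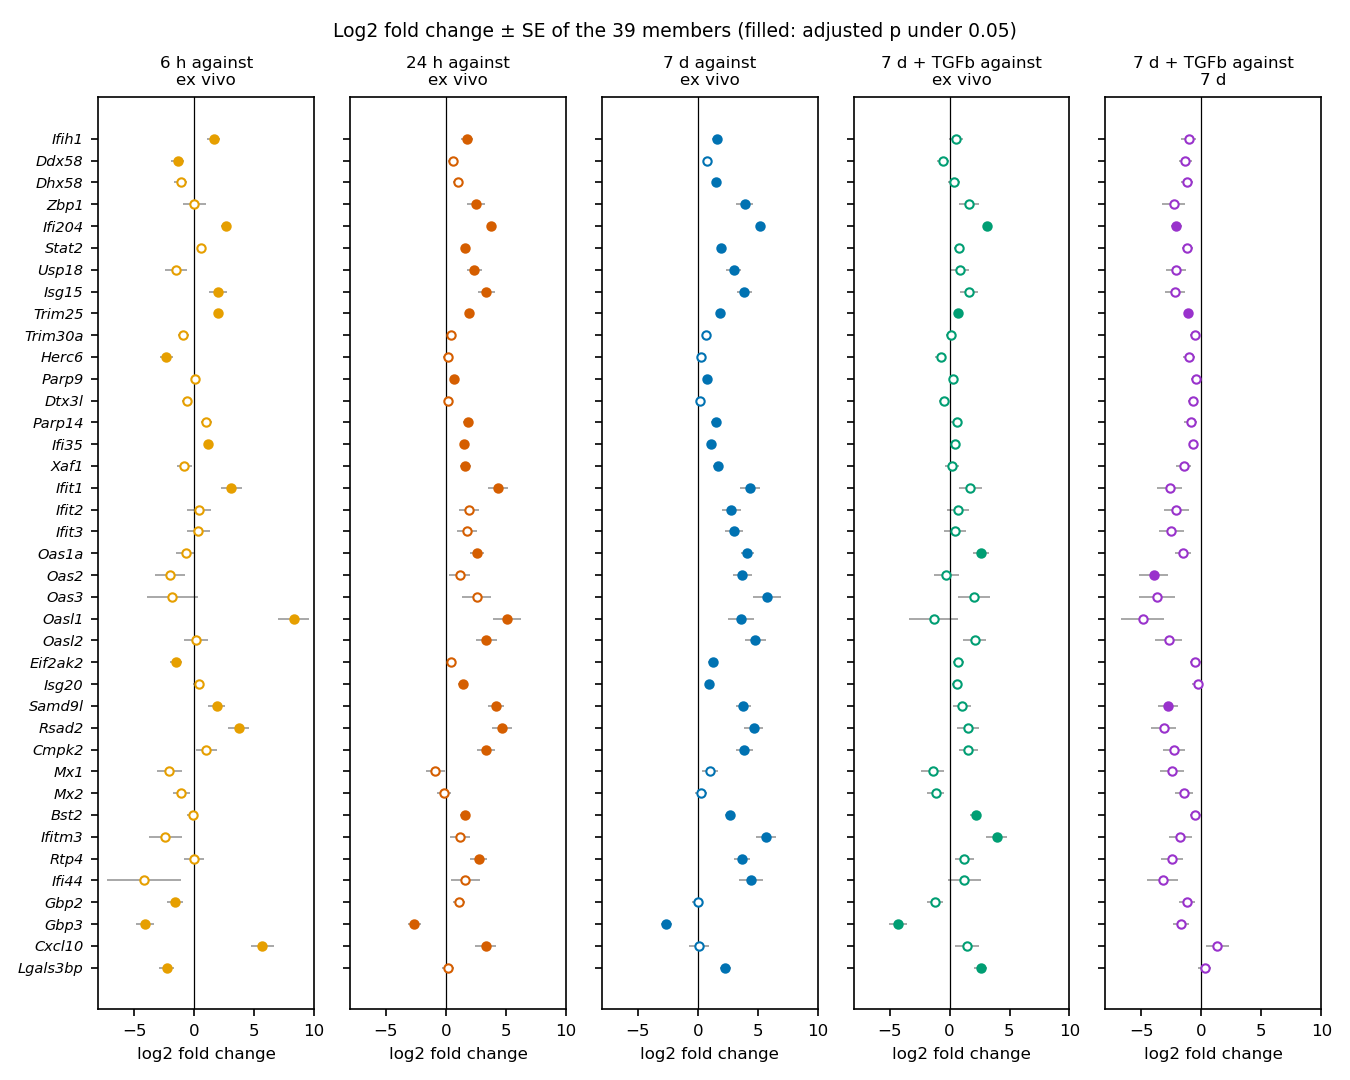
Points are log2 fold changes of the 39 members in 5 comparisons, with bars for 1 SE and filled points for an adjusted p under 0.05. In the comparison of 7 d with ex vivo 31 points are filled and all but 2 lie above 0, and in that of 7 d with TGFβ against 7 d 37 of 39 lie below 0 with 4 filled.

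Between times, 14 members were called higher at 24 h than at 6 h (22.0% of all genes) and 1, Oasl1, lower (19.8% of all genes). Among them were Herc6 (2.50 ± 0.58 on the log2 scale), Usp18 (3.87 ± 1.01) and Oas1a (3.27 ± 0.86). Without 24 h replicate 1 the called members numbered 8, with 7 higher (20.2% of all genes) and 1 lower (15.3% of all genes). The median log2 fold change was 1.50 with all libraries and 1.04 without 6 h replicate 2. Between 24 h and 7 d, 7 members were called higher, Ifi204, Ifi44, Ifitm3, Lgals3bp, Oas1a, Oas2 and Oas3 (a smaller share than the 27.2% of all genes), and Cxcl10 was called lower (21.6% of all genes). The median was 0.43 beside 0.06 over all genes, and it was -0.04 without 24 h replicate 2 and 0.02 without replicate 3. The count of calls moved most with 24 h replicate 1, without which 27 members were called, 26 of them higher (21.3% of all genes). It was 5 without 24 h replicate 2 and 4 without 24 h replicate 3 or 7 d replicate 2, 3 or 4, and Ifi204, Ifitm3 and Lgals3bp were among those higher in each of these fits.

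The members moved together from library to library within a group. In 24 h replicate 1 all 39 were higher than in the other 2 libraries, where 30.9% of all genes had their highest value in that library. Their median difference from the mean of the other libraries was 2.13 on the scale of log2(CPM + 0.5), against -0.02 over all genes, and 37 of 39 were more than 2-fold above it, as were 1.05% of all genes. The lowest of the 3 was replicate 2, the library with the 22 h label, for 38 of the 39. Of the members whose call at 24 h rested on replicate 1, Usp18 was at 65.9, 4.86 and 8.38 CPM in replicates 1 to 3 and at 4.07 to 5.82 CPM ex vivo. Zbp1 was at 24.8, 1.32 and 2.71 CPM against 1.43 to 2.30 CPM ex vivo, and Rtp4 at 106.9, 9.94 and 22.3 CPM against 2.56 to 11.7 CPM. Xaf1 was at 63.9, 10.3 and 19.8 CPM against 8.84 to 12.3 CPM, and Parp9 at 155.7, 56.7 and 70.8 CPM against 52.2 to 69.7 CPM. In each of the 5, replicate 2 lay within the ex vivo range or below it. At 6 h, replicate 1 was above replicate 2 for 38 of 39 (52.5% of all genes), with a median difference of 1.50 beside 0.00. At 7 d, replicate 5 was the lowest of the 5 for 38 of 39 (26.4% of all genes), with a median difference of -1.44 beside -0.03. In that library 29 members were more than 2-fold below the mean of the other 4, against 4.68% of all genes.

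The ex vivo libraries showed less of this. Replicate 2 was the highest of its group for 20 of the 39 (25.5% of all genes), with a median difference of 0.30 beside -0.02. The coefficient of variation, SD over mean, had a median of 14.3% over the 26 members with a mean of at least 5 CPM there, against 17.2% over all such genes. It was 72.8% at 6 h (7.93% over all genes), 103% at 24 h (8.16%), 34.9% at 7 d (14.9%) and 19.0% with TGFβ (10.7%). Depth was alike in 24 h replicates 1 to 3, at 21869995, 21548278 and 21339628 counts, while 7 d replicate 5 was the shallowest of its group at 24186690, beside 24914713 to 28024478 in the other 4. Cycling markers did differ at 7 d, the 6 genes Mki67, Top2a, Cdk1, Birc5, Mcm2 and Mcm6 summing to 70.3 CPM in replicate 5 and to 166.6 to 685 CPM in the others. At 24 h they summed to 52.7, 48.3 and 46.8 CPM in replicates 1 to 3. The part of depth and of cycling cells in the members' spread was not tested.

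**Figure D4:**
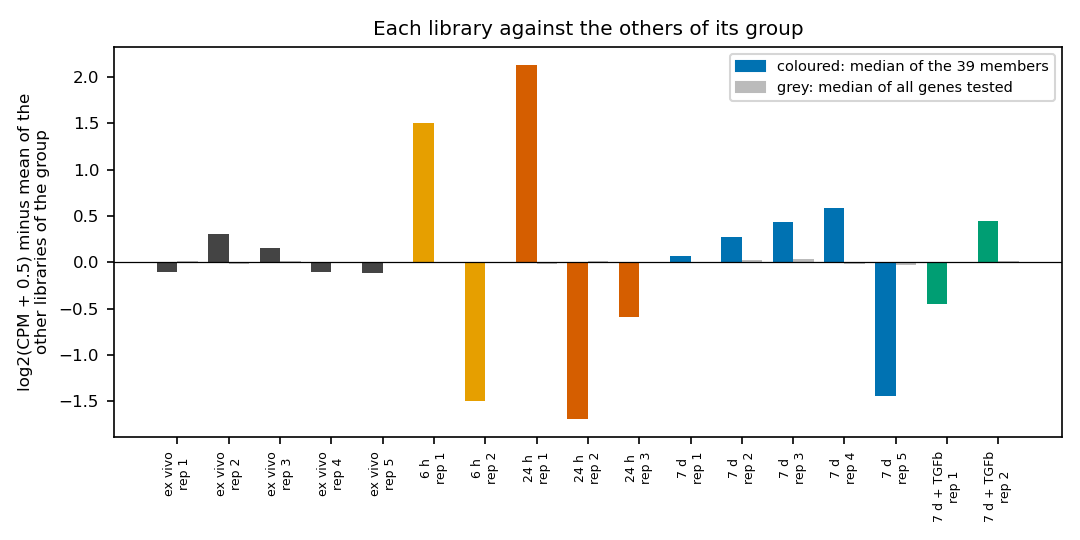
Bars give, for each of the 17 libraries, the median over members (coloured) and over all genes tested (grey) of log2(CPM + 0.5) minus the mean of the other libraries of the group. The members' bars reach 2.13 in 24 h replicate 1 and -1.44 in 7 d replicate 5, while the grey bars stay within 0.03 of 0.

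Genes that lie upstream of the module were examined from a list of 69 pathway genes, of which 64 were tested. The cytokine genes were at or near 0: Ifnb1, interferon beta, was at 2.39 and 0.23 CPM at 6 h, at 0.171, 0.0427 and 0.129 CPM at 24 h, and had 1 count in all in the 5 ex vivo and 1 in the 5 libraries of 7 d. Ifna4 and Ifng had no count in any of the 17 libraries. The 3 libraries of 24 h held 8 counts of Ifnb1 in all, too few to order them. Ifnar1, the receptor chain, was called higher at all 3 times, by 1.71 ± 0.15, 1.27 ± 0.13 and 0.53 ± 0.12 on the log2 scale. At 24 h its libraries stood at 453, 482 and 410 CPM, without the excess in replicate 1.

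Irf7, the factor that amplifies interferon, was at 5.30 to 8.44 CPM ex vivo, 25.6 and 6.95 CPM at 6 h, 182, 14.8 and 26.1 CPM at 24 h and 54.8, 150, 194, 104 and 17.2 CPM at 7 d. Its libraries had the members' order at 24 h and 7 d, with replicate 1 highest of the 3 and replicate 5 lowest of the 5, and it was called higher at both times (log2 3.34 ± 0.77 and 3.83 ± 0.74). Several sensors and adaptors fell in culture. Tmem173, encoding STING, fell by 5.06 ± 0.25, 4.80 ± 0.20 and 3.15 ± 0.15 on the log2 scale at the 3 times, and Tlr9 by 1.70 ± 0.26, 3.14 ± 0.24 and 4.61 ± 0.21. Over the whole pathway list 18 genes were called higher and 24 lower at 6 h, 18 and 20 at 24 h, and 19 and 19 at 7 d. At 7 d that is 29.7% of the 64 in either direction, below the 34.8% higher and 35.7% lower of all genes, and the shares at 6 h, 28.1% and 37.5%, were near those of all genes too.

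Within the 34 other interferon-induced genes of that list, 32 were tested, of which 2 were called higher and 14 lower at 6 h, 6 and 8 at 24 h, and 12 and 4 at 7 d. At 6 h the 6.25% higher was below the 31.2% of all genes, and the 43.75% lower was near their 36.8%. The 37.5% higher at 7 d was near the 34.8% of all genes, and the 12.5% lower was below their 35.7%. The shares at 24 h, 18.8% and 25.0%, were below the background. Slfn5, Oas1g and Ifi27l2a were called higher at 7 d, by 4.80 ± 0.65, 5.56 ± 0.78 and 4.91 ± 0.64 on the log2 scale. Gbp5 and Gbp7, relatives of Gbp3, were called lower at each time, by 4.72 ± 0.53 and 3.83 ± 0.51 at 7 d.

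With TGFβ, the members' levels were mostly below those of 7 d cultures without it, but few were called. There were 4 called lower, Ifi204, Oas2, Samd9l and Trim25 (10.3% of 39, against 6.52% of all genes), and 0 higher (9.57% of all genes). In edgeR 24 of the 39 had an unadjusted p under 0.05 (29.0% of all genes), and in DESeq2 18 were called lower (8.54% of all genes). The median log2 fold change was -1.52, beside -0.04 over all genes. Ifi204 was at 51 and 54.3 CPM with TGFβ and at 142.1 to 275.6 CPM without (log2 -2.08 ± 0.46, n = 2 against 5, edgeR adjusted p = 0.00499). Trim25 was at 109.7 and 106.5 CPM against 167.7 to 314.3 CPM (log2 -1.10 ± 0.31, edgeR adjusted p = 0.0215). Oas2 was at 2.79 and 6.09 CPM against 12.9 to 120.4 CPM, and Samd9l at 5.98 and 21.6 CPM against 36.2 to 143.2 CPM, so that in these 4 genes the groups did not overlap. None of the 4 was called without either TGFβ library, and Oas2 and Samd9l were lost without any 1 of 7 d replicates 1 to 4. With the replicate number as a block, Oas2 and Samd9l were not called either (edgeR adjusted p of 0.0727 and 0.096). Cycling markers summed to 333 and 1112 CPM with TGFβ, against a median of 251.2 CPM at 7 d and 34.9 CPM ex vivo, and their part in this comparison was not tested.

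Much of what overlap there was came through 7 d replicate 5. Both TGFβ libraries lay below all 5 libraries of 7 d in 18 of 39 members (17.7% of all genes). They lay below the other 4 libraries, a choice made after the values were seen, in 35 of 39 (20.7% of all genes), the others being Isg20, Bst2, Cxcl10 and Lgals3bp. Without that replicate 9 members were called lower (6.45% of all genes). For example, Isg15 was at 3.66 and 5.24 CPM with TGFβ, on either side of 4.40 CPM in 7 d replicate 5 and below 16.4 to 28.4 CPM in the rest. Lgals3bp, at 1118 and 972.1 CPM with TGFβ, lay within the 7 d range and had a log2 fold change of 0.28 ± 0.56. TGFβ replicate 2 was above replicate 1 in 31 of the 39 (51.3% of all genes).

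Against ex vivo cells, the same TGFβ libraries had 6 members called higher, Bst2, Ifi204, Ifitm3, Lgals3bp, Oas1a and Trim25 (28.3% of all genes), and Gbp3 lower (27.5% of all genes). The median was 0.72 beside -0.05. Lgals3bp was 5.97-fold higher (log2 2.58 ± 0.53) and Bst2 4.54-fold higher (log2 2.18 ± 0.44), with adjusted p (edgeR) of 0.000819 and 0.000707. The comparisons of 7 d and of TGFβ with ex vivo share the ex vivo libraries. Without TGFβ replicate 2, Ifitm3, Oas1a and Trim25 were no longer called and 4 members remained, and the call of Trim25 was also lost without TGFβ replicate 1 or ex vivo replicate 1, 3 or 5. Of the 64 pathway genes tested, 6 were called higher with TGFβ than at 7 d without it (9.38%, against 9.57% of all genes). Another 7 were called lower (10.9%, against 6.52%). Irf8 (log2 0.95 ± 0.15), Tlr9 (1.90 ± 0.22) and Tmem173 (0.66 ± 0.18) were among those higher.

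Per length, the levels also changed order. In the TPM deposited by the authors, which corrects for gene length, Lgals3bp was the most abundant member ex vivo at 156.6 ± 7.56 TPM (SD, n = 5), followed by Trim30a at 60.7 ± 15.7 and Bst2 at 47 ± 17.9. The latter 2 did not differ beyond their spread. At 6 h Cxcl10 and Oasl1 had the highest means, 144.9 and 140.4 TPM, which did not differ beyond the spread of the 2 libraries. Their lower values, 44.25 and 23.5 TPM, were below the lower values of Ifi35 and Trim25, 51.18 and 48.36 TPM. The lead of these means thus rests on the higher of the 2 libraries. At 7 d Lgals3bp was at 657.3 ± 190.7 TPM, Ifitm3 at 395.1 ± 223.5 and Bst2 at 260.9 ± 90.4, again within each other's spread for neighbours in that order. The genes of a group come from the same libraries, so these spreads hold shifts that genes share. Their order within single libraries was not tested. With TGFβ, Lgals3bp stood at 726.1 ± 38.4 TPM (SD, n = 2), above Bst2 at 169.3 ± 66.1.

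Compared with brain lysate, which holds all cells of the tissue, sorted ex vivo microglia had more of most members. Of 37 tested, 30 were called higher (39.1% of all genes) and 1, Cmpk2, lower (43.5% of all genes), with a median log2 fold change of 3.36 beside -0.10. Trim30a was 6.60 ± 0.33 and Parp14 5.34 ± 0.16 higher on the log2 scale. Parp14 was at 126 to 172.2 CPM in microglia, scaled for this comparison, and at 3.00 to 4.05 CPM in lysate. Cmpk2, a mitochondrial nucleotide kinase, was at 1.56 to 3.41 CPM in microglia and 18 to 20.9 CPM in lysate (log2 -3.00 ± 0.24, edgeR adjusted p = 1.59e-07). Ifit1, Ifit2, Ifit3, Isg15, Rsad2 and Ifitm3 were not called, with log2 fold changes from -0.58 to 0.41. Neuronal markers summed to 3546 to 5001 CPM in lysate and 2.06 to 9.88 CPM in the microglial libraries.

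Chromatin was measured in the resting and the cultured state without replicates, since each peak list was called on pooled samples. A peak overlapping the 300-base promoter window was found ex vivo in ATAC for 22 of 29 members (75.9%, against 39.5% of 27025 genes), in H3K4me2 for 28 (96.6%, against 47.1%), in H3K27ac for 19 (65.5%, against 36.6%) and in PU.1 for 15 (51.7%, against 25.7%). At 7 d, 25 had an ATAC peak (86.2%, against 40.2%) and 27 an H3K27ac peak (93.1%, against 33.9%). The 27025 genes were not filtered for expression, while the members all passed such a filter. Of the 3715 genes called higher at 7 d, 85.1% had an ATAC peak at both times, against 68.2% of the 22 members called higher. For H3K27ac the shares were 79.0% and 54.5%. Beside genes that rose, peaks at both times were thus less common among the members. H3K4me2 thus lay at nearly all these promoters in cells that transcribed many of the genes at a few CPM. The exception was Ifi44, which had no peak in any of the 6 lists. Of the 8 promoters printed above, all 8 had an H3K4me2 peak ex vivo.

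The H3K27ac lists, a mark of active promoters and enhancers, differed most. An H3K27ac peak was listed at 7 d and not ex vivo for 9 of 29 members (31.0%, against 2.00% of all genes and 6.03% of the 3715 genes called higher at 7 d). These were Ifit1, Rsad2, Oas1a, Oas3, Oasl1, Oasl2, Cmpk2, Ifitm3 and Samd9l, each called higher at 7 d. With a window of 1 kb either side of the start they numbered 8 (27.6%, against 2.68% of all genes), Oasl1 then having a peak at both times. At Ifit1 the peak of 7 d was chr19:34640079-34641885 on mm10, at Rsad2 chr12:26455348-26457254, and at Ifitm3 chr7:141009228-141011758. At Oas1a it was chr5:120906394-120908193 and at Oas3 chr5:120774872-120778053. Cxcl10, whose levels at 7 d overlapped those ex vivo, was the 1 member whose H3K27ac peak was listed ex vivo only, at chr5:92349006-92349639. At Gbp3 a peak was listed at both times, chr3:142559094-142561477 ex vivo and chr3:142559514-142561144 at 7 d, although its RNA was 6.11-fold lower.

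ATAC peaks were listed at 7 d only for Oas1a, Oas3 and Ifitm3 (10.3%, against 3.30% of all genes and 4.39% of genes called higher at 7 d), and for none ex vivo only. The 7 d ATAC peak of Ifitm3 was chr7:141010680-141010880 and that of Oas1a chr5:120907429-120907629, both covering the capital letters printed above. At Ifit1 and Rsad2 ATAC peaks were listed at both times, chr19:34640685-34640885 and chr12:26456495-26456695 ex vivo, so that these 2 promoters had an ATAC peak in cells for which no H3K27ac peak was listed there. No ATAC peak was listed at the windows of Isg15, Oasl1, Oasl2 and Ifi44 at either time. The lists came from 45586997 tags for H3K27ac ex vivo against 27568358 at 7 d, and 23816068 against 15223392 for ATAC. In all they held 24520 against 31349 H3K27ac peaks, of median length 1777 and 1117 bases, and 90674 against 112977 ATAC peaks. The part of depth and of peak calling in the differences at these promoters was not tested. The deposited lists hold no tag counts per peak, so a peak missing from a list may lie just under the authors' threshold.

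**Figure D5:**
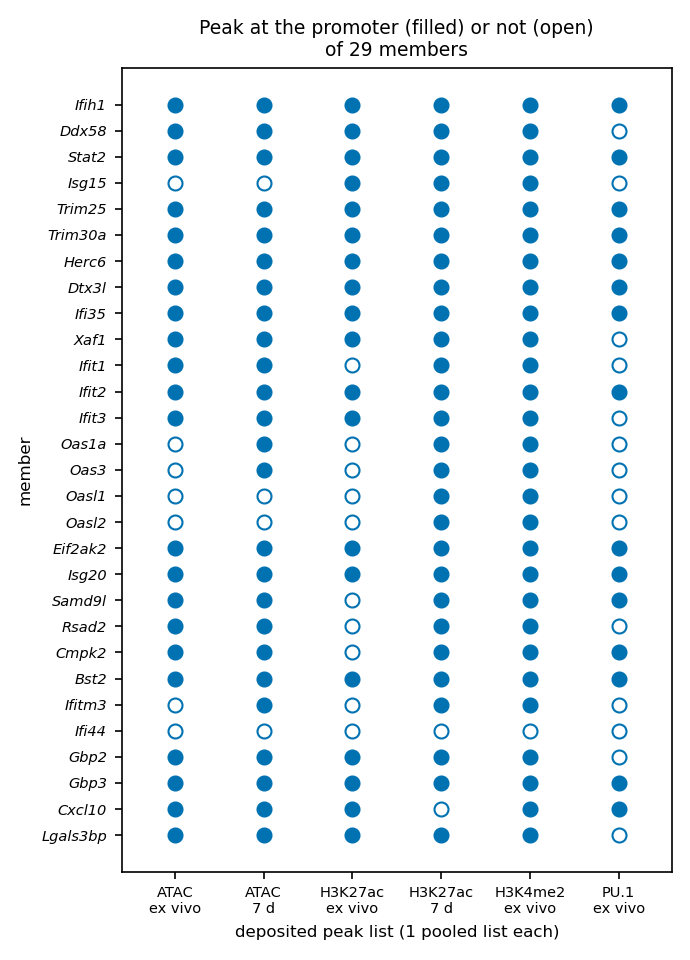
Rows are the 29 members with a promoter sequence and columns the 6 deposited peak lists, with filled circles for a peak overlapping the promoter window. The 9 members open in H3K27ac ex vivo and filled at 7 d include 6 RNA-directed effectors, and only Ifi44 is open throughout.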

How the data were processed

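The 39 members, their roles and the pathway and marker lists were chosen with earlier results of these data known. Gene counts were deposited by the authors as raw whole numbers for 21 RNA libraries. TPM were deposited by the authors in a table they call trimmed, and how it was trimmed is not stated; its columns sum to 568934 to 644847, so part of each library's transcripts is not in it. Per the submitters' processing notes STAR, Bowtie2, HOMER, bedtools, limma, R 3.3.1 and the builds mm10 and hg38 were used, with no role given. Per the file headers, peaks were called with HOMER on 1 pooled tag directory per condition, without an input for ATAC and against one for the ChIP lists, and any shift of ATAC reads is not stated.

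Here counts were filtered with filterByExpr, scaled with TMM and fitted with edgeR 4.0.16 (R 4.3.3) in 1 model over the 17 microglial libraries, and in another over ex vivo and lysate libraries. p-values were adjusted over all genes tested, and the fits were tested on simulated counts. Alternatives were DESeq2 1.42.0, limma 3.58.1 on log2 of TPM plus 1 or 0.1, other scalings, no filter, the compared groups alone, the replicate number as a block, each library left out in turn and, added after seeing the data, 7 d replicates 2 and 3 left out together. Members are named by role, all 39 being eligible, with values by library for the most abundant of each role and for some, not all, of the members whose call depends on 1 library; which of these and which others, such as Cxcl10, are given by library was chosen after their values were seen. Other genes named come from the pathway list. Promoters of Mx1, Mx2, Oas2, Ifi204, Dhx58, Usp18, Rtp4, Parp9, Parp14 and Zbp1 were not used here. Peaks overlapped a promoter by at least 1 bp. No pair of libraries was a duplicate. The 7 d libraries formed sets by a chi-square per gene on the counts, larger where libraries are less alike. It was 20.58 between replicates 2 and 3 and 24.26 to 49.26 among replicates 1, 4 and 5. Between these sets it was 115.8 to 165.8, and what sets them apart was not tested. Some genes of the pathway and marker lists are not reported here.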

Additional observations from a re-analysis of the deposited data

Results flagged for a closer look

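In 8 of 117 cases tested, 39 members in 3 groups, the highest or lowest library of a group of 4 or 5 stood far from the rest, by a test on the gap that chance meets in about 1 of 20 groups, or 5.85 of 117. In 7 d replicate 5, Rsad2 at 8.79 CPM, Trim30a at 113.9 CPM and Eif2ak2 at 85 CPM were far below the other 4 libraries. In 7 d replicate 1, Cxcl10 at 7.62 CPM was far above the others. In brain lysate replicate 4, Oas3 at 0.353 CPM, Ifi35 at 1.91 CPM, Dhx58 at 2.33 CPM and Stat2 at 35.3 CPM were far above the other 3.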

How the results depend on the processing

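The total counts of members called at 6 h, 24 h and 7 d against ex vivo and in lysate stayed within 1.5 times of the main count in every alternative run, but at 6 h the balance of 10 higher and 6 lower became 8 and 8 with upper-quartile scaling, 11 and 12 with those groups alone, 6 and 11 with limma on log2(TPM + 1) and 6 and 15 with log2(TPM + 0.1). Of 4949 values of single members under alternatives, 4551 kept direction and call, 217 lost it, 179 gained it and 2 reversed. With TGFβ against 7 d, 4 members were called, but 2 with no filter, 13 with those groups alone, 18 with DESeq2, 7 with limma on log2(TPM + 1), 2 without 7 d replicates 2 and 3, and 0 to 9 with 1 library left out. With TGFβ against ex vivo, 7 were called, 24 with those groups alone and 4 to 7 with 1 library left out. For 24 h against 6 h, 15 were called, 1 with those groups alone and 1 to 22 with 1 library left out. For 7 d against 24 h, 8 were called, 4 with no filter, 4 with those groups alone, 5 without 7 d replicates 2 and 3, and 4 to 27 with 1 library left out. With 1 mismatch allowed, ISRE-like matches were in 28 of the members' 29 genes (38.9% of all genes) and in 35.4% of all promoters. The log2 fold change of Ifih1 at 6 h ranged from -0.54 to 2.50 and that of Lgals3bp at 24 h from -1.28 to 0.59 with 1 library left out. Upper-quartile scaling moved the median of all genes at 6 h from -0.17 to -0.39 and that of the members from 0.01 to -0.23. Where 1 library of a group is left, it is assumed to vary like the other groups. The cause of these changes was not tested. With a replicate block, 6 members were called higher and 7 lower at 6 h, where the median moved from 0.01 to -0.67, 17 and 1 at 24 h, and 29 and 1 at 7 d. The shares of all genes higher and lower were then 29.9% and 35.6% at 6 h, 28.6% and 32.2% at 24 h, and 34.9% and 35.6% at 7 d. Same-numbered libraries correlated at 0.353 and 0.347 between 6 h and 24 h and at 0.174 and 0.456 between 7 d and TGFβ, with 2 pairs each, and at -0.194 to 0.229 elsewhere. Libraries of unlike number correlated at up to 0.505, between 7 d replicate 5 and TGFβ replicate 1. No label says what a number shares, so the numbers were not taken as pairs.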
